A study of Mus musculus with 6 samples.

Results

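Metalloproteinases and their inhibitors were examined in basal cells of the epidermis, sorted by flow cytometry from the back skin of mice. The members are the genes of the deposited table with a symbol of the form Mmp, Adam or Adamts plus a number, or Timp plus a digit. There are 79 among 24972 table entries, made up of 23 MMP, 33 ADAM, 19 ADAMTS and 4 TIMP genes. All animals had the genotype p63CreER; Piezo1fl/fl; R26-mTmG. p63CreER is a tamoxifen-activated Cre recombinase of basal keratinocytes, Piezo1fl/fl is a floxed gene for a mechanically gated cation channel, and R26-mTmG is a membrane reporter that changes colour after recombination. The 3 control samples came from animals given vehicle, and the 3 cKO samples from animals injected with tamoxifen 3 times (20 ug each) from postnatal day 45 to 52. Control animals therefore carried the same Cre and floxed alleles, and tamoxifen itself cannot be told apart from loss of Piezo1. The labels number the samples without saying that each is a separate animal, so p-values cover only sample-to-sample spread, which may be partly technical.

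Metalloproteinases are zinc-dependent enzymes made as inactive zymogens. Matrix metalloproteinases (MMPs) cut collagens, laminins and other matrix proteins, either after secretion or, for the membrane-type enzymes, at the cell surface. ADAMs are membrane-anchored and release the outer parts of growth factors, Notch receptors and cadherins, whereas ADAMTS enzymes are secreted and act on proteoglycans, procollagens and fibrillin microfibrils. Tissue inhibitors of metalloproteinases (TIMPs) block the catalytic zinc site. In epidermis this system releases ligands of the EGF receptor, remodels the basement membrane and is used by keratinocytes at wound edges.

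Poly(A) RNA was sequenced, and values are the authors' normalized counts, that is, reads per gene scaled to make libraries comparable. The approximate depth was 20.8 to 24.5 M reads in controls, 15.6 and 14.2 M in cKO replicates 2 and 3, and only 1.05 M in cKO replicate 1. In cKO replicate 1 a single read was worth 12.2 normalized counts, against 0.491 to 0.760 elsewhere, and that library also stood apart in its correlation with the others across genes (r = 0.814 to 0.855, against 0.931 to 0.978 among the rest; genes are not independent replicates). Piezo1 was lower in each cKO library (380, 565 and 399) than in any control (806, 1098 and 1476), with a log2 fold change of -1.31 (SE 0.27). The basal keratins were abundant in every library, with Krt5 between 228148 and 266942 normalized counts and Krt14 between 117197 and 203481. Xist marked control replicate 1 and cKO replicates 1 and 2 as female, and the Y-linked gene Ddx3y marked the others as male, so the sexes were divided unequally. Each group thus came from more than 1 animal, but samples of the same sex may still share an animal.

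The promoters of Mmp3, Mmp10 and Mmp13 are shown because these secreted MMP genes of 1 cluster on chromosome 9 all had their highest value in the same control library. A further reason is that each holds the letters TGANTCA (N is any base). This pattern takes in the site bound by AP-1 factors (Fos and Jun proteins) but is wider than it. The cluster holds 10 MMP genes between positions 7272514 and 7699585 (GRCm38). Each window is the 250 bases before the RefSeq start on the plus strand of GRCm38.p6, namely chr9:7445572-7445821 for Mmp3, chr9:7502092-7502341 for Mmp10 and chr9:7272264-7272513 for Mmp13. Capitals mark TGANTCA, whose first base lies at -46, -63 and -35 from the start respectively.
Mmp3: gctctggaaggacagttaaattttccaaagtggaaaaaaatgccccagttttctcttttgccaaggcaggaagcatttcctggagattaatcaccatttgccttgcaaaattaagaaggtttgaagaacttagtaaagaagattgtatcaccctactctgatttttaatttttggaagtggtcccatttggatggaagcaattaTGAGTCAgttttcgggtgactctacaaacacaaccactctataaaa
Mmp10: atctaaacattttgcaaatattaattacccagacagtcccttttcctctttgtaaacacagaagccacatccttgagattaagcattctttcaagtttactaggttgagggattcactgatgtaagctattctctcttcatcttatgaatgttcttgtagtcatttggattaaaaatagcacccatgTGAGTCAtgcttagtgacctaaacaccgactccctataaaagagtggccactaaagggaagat
Mmp13: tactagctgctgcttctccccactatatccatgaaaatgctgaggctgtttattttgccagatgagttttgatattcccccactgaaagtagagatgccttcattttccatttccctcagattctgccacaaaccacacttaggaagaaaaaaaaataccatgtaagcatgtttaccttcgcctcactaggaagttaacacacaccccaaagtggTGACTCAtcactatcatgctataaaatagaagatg
TGANTCA, which reads as the same motif on both strands, was found in the windows of these 3 genes and in none of the other 14 expressed members with a RefSeq window (3 of 17, 17.6%). Over all 32851 RefSeq windows the share was 6.75%. The 3 genes with a match belong to 1 cluster, and 6 tested members, among them Mmp2 and Mmp9, had no window and were not searched. A match is a description of the letters and does not show binding.

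Of the 79 members, 23 had a mean of at least 10 normalized counts over the 6 libraries and are called expressed here. Another 36 were above 0 in at least 1 library with a mean under 10, and 20 were listed at 0 in every library. The expressed members were 9 of 23 MMP, 6 of 33 ADAM, 6 of 19 ADAMTS and 2 of 4 TIMP genes. Most of those at 0 were ADAM genes (14 of 33). Among MMP genes, the matrilysin Mmp7, the neutrophil collagenase Mmp8 and the membrane-type Mmp16 were at 0, as was the inhibitor Timp4.

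Scaled by exon length, the most abundant transcript in controls was Adamts1, a secreted protease of versican and aggrecan, at 675 ± 58.7 normalized counts per kb (SD, n = 3). Next came Adam8 at 499 ± 170 per kb, the membrane-type enzyme Mmp14 at 432 ± 81.2 and the inhibitor Timp3 at 430 ± 80.7, and these 3 means lie within 1 SD of each other. Adamts14, a procollagen N-proteinase, followed at 323 ± 21.7 per kb and Adam10 at 287 ± 11.2. The sheddases Adam17 at 217 ± 13.9, Adam9 at 193 ± 19.6 and Adam15 at 162 ± 4.92 per kb formed the next group. The 4 marker genes of the system, Mmp2, Mmp14, Adam10 and Adam17, were all expressed, though Mmp2 was at only 43.5 ± 21.9 per kb in controls.

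**Figure D1:**
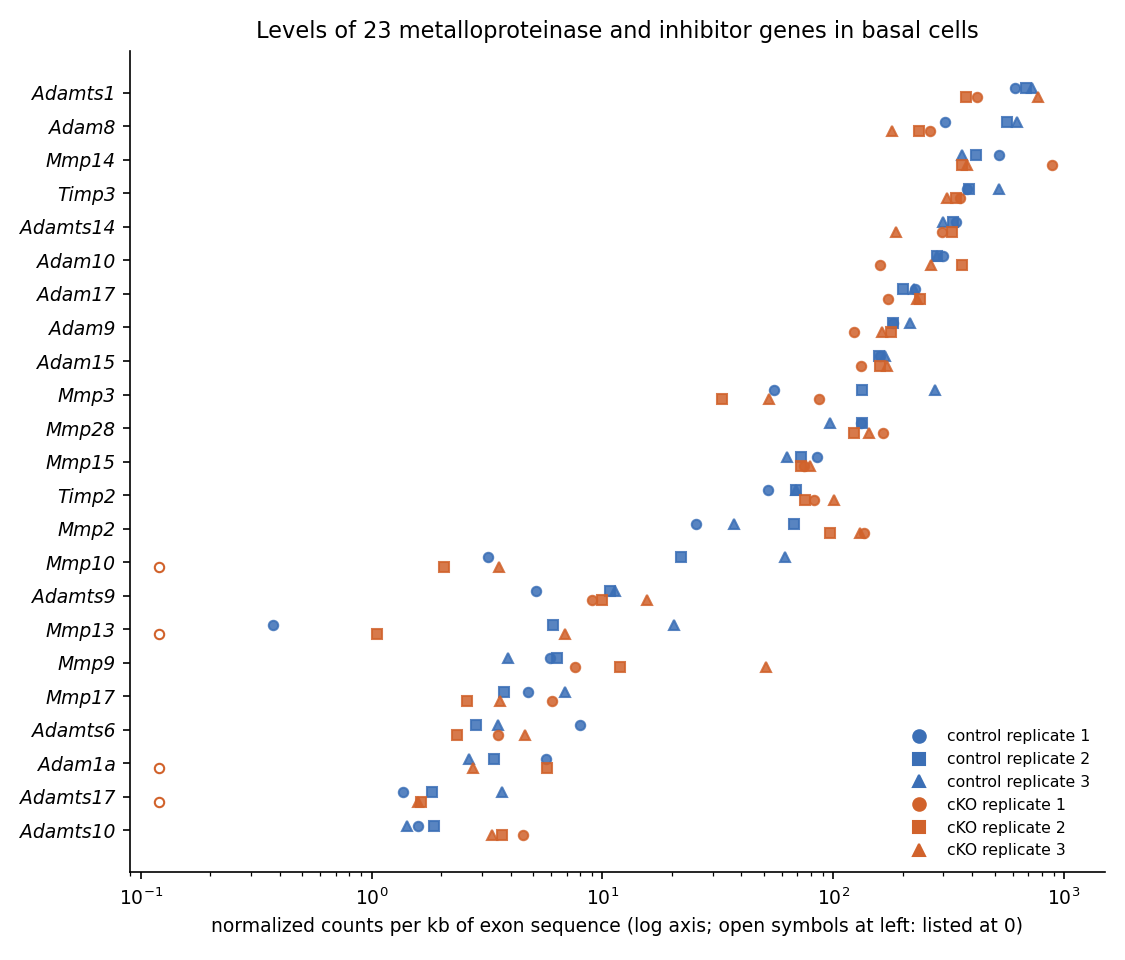
Levels of the 23 expressed members per library, in normalized counts per kb of exon sequence on a log axis, ordered by the control mean (blue, control; orange, cKO; circle, square and triangle, replicates 1, 2 and 3; open symbols, listed at 0). Adamts1, Adam8, Mmp14 and Timp3 lie at the top, and Mmp10 and Mmp13 spread widest among the controls.

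Between cKO and control no member passed adjustment over the 12239 genes tested (smallest adjusted p = 0.744, limma with Benjamini-Hochberg), and over all genes 0% passed. At an unadjusted p under 0.05 there were 3 of the 23 tested members, Mmp2 higher and Adam8 and Mmp10 lower, or 13.04% where all genes gave 4.93% (1.47% higher and 3.46% lower). The 3 cKO values lay outside the range of the controls in 7 members (30.4%) and in 10.9% of all genes tested. Of these 7, Mmp2, Mmp9, Timp2 and Adamts10 were above the controls (5.16% of all genes) and Adam8, Adam9 and Timp3 below (5.7% of all genes). Without the shallow cKO replicate 1 there were 10 such members of 23, against 19.6% of genes. Fitted values were lower in cKO for 15 tested members and higher for 8 (median log2 fold change -0.29, over all genes -0.03), but 12 lower and 11 higher without cKO replicate 1 or with limma-voom. The members that passed the level filter only through 1 group, Adamts10 through cKO and Mmp10, Mmp13 and Adamts17 through controls, had to differ, so these counts describe the tested members and no more.

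**Figure D2:**
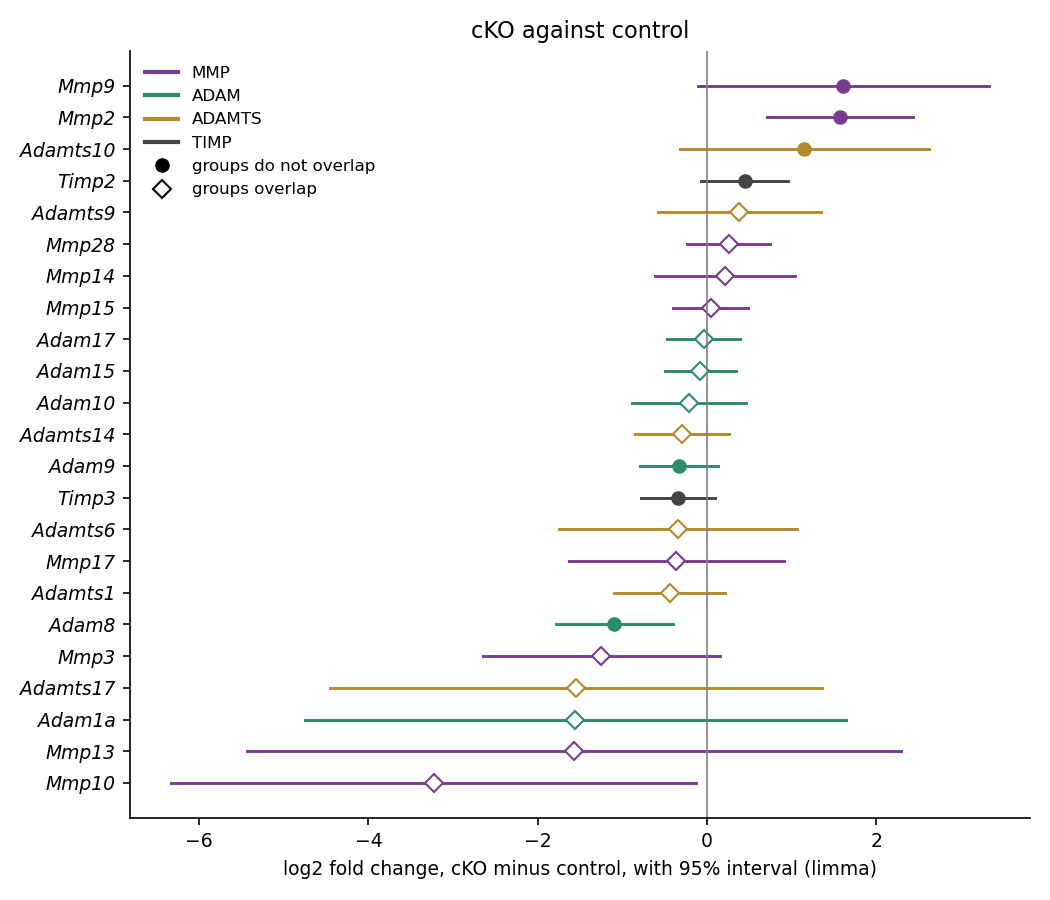
Log2 fold change, cKO minus control, with its 95% interval from limma for the 23 tested members, coloured by family (filled circles, groups that do not overlap; open diamonds, groups that overlap). Intervals of Mmp2, Adam8 and Mmp10 do not reach 0, none of the 3 passes adjustment over all genes, and the widest intervals belong to genes listed at 0 in cKO replicate 1.

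The gelatinase gene Mmp2, whose product cuts denatured collagen and collagen IV of basement membranes, was higher in every cKO library. The controls (replicates 1, 2, 3) held 78.2, 209 and 115 normalized counts, and the cKO libraries in the same order 419, 297 and 404. All cKO values exceeded all controls, and the 419 of cKO replicate 1 corresponds to about 34.2 reads. On the log2 scale the difference was 1.57 (SE 0.37, 95% interval 0.71 to 2.43), a fitted 2.97-fold difference with an unadjusted p of 0.00308 in limma and an adjusted p of 0.744. With sex as a covariate it was 1.77, without cKO replicate 1 it was 1.48, and over all 16 alternatives it ranged from 1.25 to 1.95 with an unadjusted p of 5.5e-04 to 0.0124. Mmp2 (ENSMUSG00000031740.8) is a plus-strand gene at chr8:92827291-92853420 (GRCm38). In a sorted population, fewer cells of a type and less RNA per cell cannot be told apart, here and in what follows.

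Fibroblasts are a major source of Mmp2 in skin, and their defining markers were near 0. The 8 markers (Col1a1, Col1a2, Col3a1, Pdgfra, Dcn, Lum, Dpt and Fbn1) together came to 17.4 to 31.3 normalized counts in controls and 22.2 to 46.5 in cKO, and none of the 8 reached the level filter. In cKO replicate 1 the sum of 37.0 came from about 2.0 reads of Lum and 1.02 of Col3a1, with the other markers at 0. The sum is too near the floor there to show a change. Immune marker sums were higher in cKO than in controls, as Mmp2 was. The summed T cell markers (5 of 5 higher) were 45.1 to 93.1 in controls and 206 to 608 in cKO. The Langerhans and myeloid markers (6 of 7 higher) were 1139 to 1430 and 1883 to 8638, and most of that sum was Cd74 and H2-Ab1. Groups did not overlap for Cd74, H2-Ab1, Csf1r and Laptm5, but did for Cd207, Adgre1 and Ptprc. Cd207, the Langerhans cell marker, was at 87.3, 222 and 216 in controls and at 170, 172 and 1035 in cKO. Adgre1 and Ptprc were listed at 0 in cKO replicate 1. Within cKO, Mmp2 was similar in replicates 1 and 3, whose Langerhans and myeloid sums were 2461 and 8638. Melanocyte markers summed to 17.2 to 18.2 in controls and to 12.3, 52.7 and 68.2 in cKO. The part of these cells in the Mmp2 difference was not tested.

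Activation of the MMP2 zymogen at the cell surface uses Mmp14 as protease and Timp2 as a bridge between them. Mmp14, a membrane-type collagenase, was at 2287, 1815 and 1589 normalized counts in controls and at 3901, 1582 and 1668 in cKO. The groups overlapped, the single high value was that of the shallow cKO replicate 1, and the log2 fold change of 0.21 (SE 0.36) became -0.21 without it. Timp2 was at 203.5, 270 and 269 in controls and at 322, 295 and 393 in cKO. Every cKO value was above the controls, and the log2 difference was 0.44 (SE 0.22, 95% interval -0.07 to 0.96, unadjusted p = 0.0798 in limma).

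Timp3, the inhibitor that stays bound to matrix and also blocks ADAM17, lay the other way. It was at 1868, 1920 and 2584 normalized counts in controls and at 1758, 1689 and 1539 in cKO, with all cKO values below the controls. The fitted log2 difference was -0.34 (SE 0.19, 95% interval -0.78 to 0.10, unadjusted p = 0.111). Control replicate 3 was the highest of all, and without it the change was -0.19. Exons of Syn3 overlap Timp3 on the opposite strand, and whether counting used strand is not given in the sources used here. The other inhibitors were barely detected. Timp1 reached 4.90 (control replicate 2) and 7.25 (control replicate 3) normalized counts and was listed at 0 in the other 4 libraries, and Timp4 was at 0 in all 6.

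**Figure D3:**
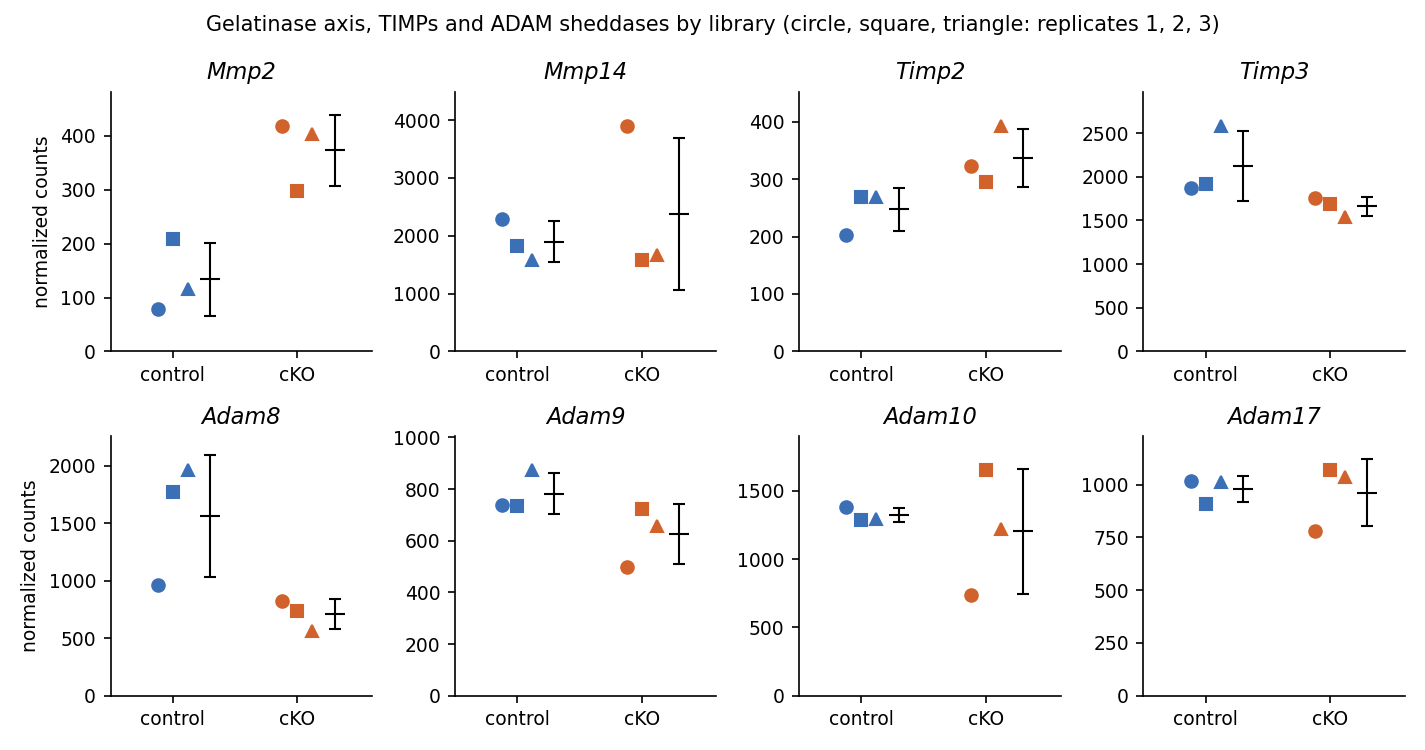
Normalized counts of Mmp2, Mmp14, Timp2, Timp3, Adam8, Adam9, Adam10 and Adam17 in each library (circle, square and triangle, replicates 1, 2 and 3), with the mean and SD of each group beside the points (n = 3). The groups do not overlap for Mmp2, Timp2, Timp3, Adam8 and Adam9, while Adam10 and Adam17 overlap and the high cKO value of Mmp14 is that of replicate 1.

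The other gelatinase gene, Mmp9, was low in controls, at 20.0, 21.3 and 13.1 normalized counts. In cKO it stood at 25.6, 40.3 and 171, where the 25.6 of replicate 1 is about 2.09 reads. The log2 fold change of 1.61 (SE 0.74, unadjusted p = 0.0624 in limma) rested on cKO replicate 3. It was 0.82 without that library and 2.17 without cKO replicate 1. The Langerhans and myeloid markers, from cells in which Mmp9 is known to be expressed, likewise had their highest sum in cKO replicate 3 (8638). The sum was 2461 and 1883 in cKO replicates 1 and 2, and 1139, 1384 and 1430 in controls. The remaining libraries did not rank alike. Control replicate 3 had the lowest Mmp9 and the highest control sum, and cKO replicate 1 had a higher sum but less Mmp9 than cKO replicate 2. Neutrophils, a further source, had Ly6g at 0 in every library and a marker sum of 0 to 15.2. The part of other cells in the Mmp9 difference was not tested.

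**Figure D4:**
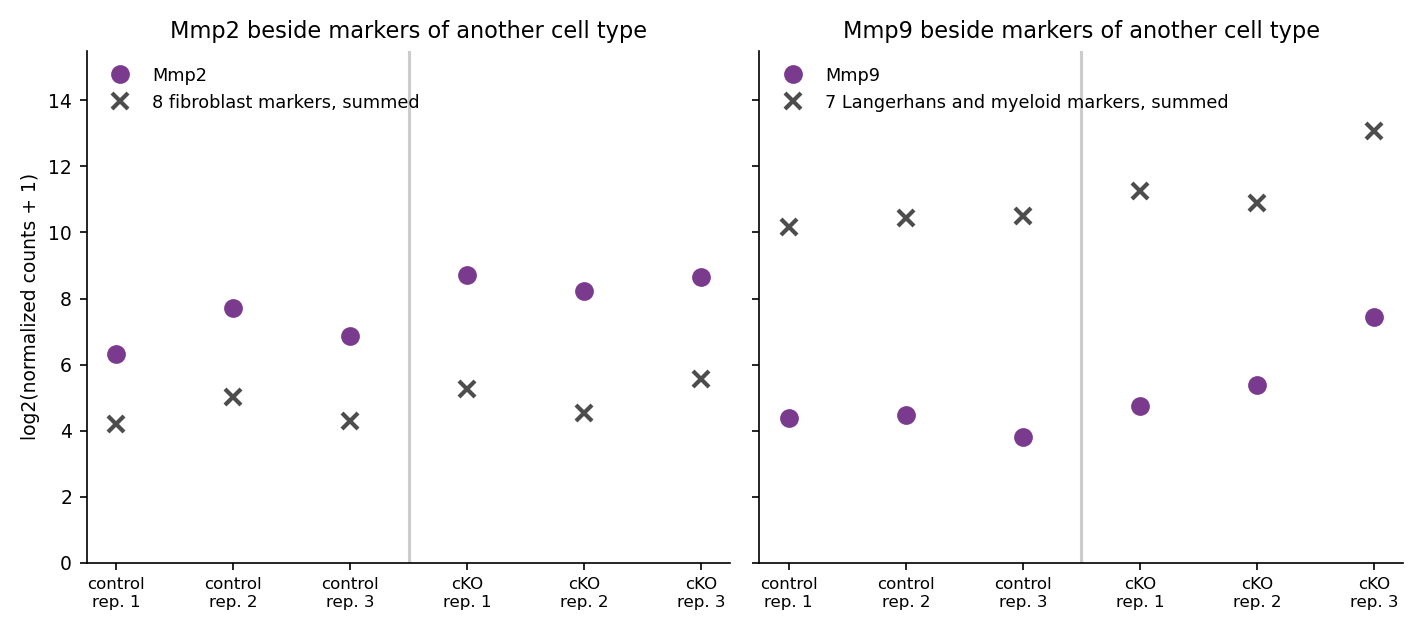
Mmp2 beside the sum of 8 fibroblast markers (left) and Mmp9 beside the sum of 7 Langerhans and myeloid markers (right), each as log2(normalized counts + 1) in the 6 libraries (circles, the gelatinase; crosses, the marker sum). The fibroblast sum is low in every library (17.4 to 46.5) and rests on Lum and Col3a1 at about 2.0 and 1.02 reads in cKO replicate 1. Mmp2 is higher in cKO, and Mmp9 and the Langerhans and myeloid sum are both highest in cKO replicate 3.

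The stromelysin and collagenase genes of the chromosome 9 cluster, whose promoters are printed above, differed widely between libraries of the same group. Mmp3, stromelysin-1, an enzyme of broad matrix specificity, stood at 100, 239 and 499 normalized counts in controls and at 155, 59.2 and 95.3 in cKO. Control replicates 2 and 3 were above every cKO library and control replicate 1 was within the cKO range. The log2 fold change was -1.25 (SE 0.60, unadjusted p = 0.0729 in limma), and it was -0.69 without control replicate 3 and -1.84 without control replicate 1.

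Mmp10, stromelysin-2, was at 5.51, 37.6 and 106 normalized counts in controls, was listed at 0 in cKO replicate 1 and was at 3.55 and 6.17 in cKO replicates 2 and 3. Control replicate 1 again fell within the cKO range. The log2 fold change of -3.23 (SE 1.33, unadjusted p = 0.0433) depended on the pseudocount, at -3.61 with 0.5 and -2.23 with 5. Its unadjusted p in limma was above 0.05 with a pseudocount of 0.5 (0.0505), with control replicate 2 (0.143) or 3 (0.241) left out, with cKO replicate 1 (0.0733) or 2 (0.0595) left out, with limma-voom (0.164) and with sex as a covariate (0.0826). Without control replicate 3 the log2 fold change was -2.31, and without cKO replicate 1 it was -2.39. In cKO replicate 1 a single read is worth 12.2 normalized counts and 3 reads 36.7, beside a control mean of 49.7 for Mmp10.

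Mmp13, collagenase-3, was at 1.004, 16.4 and 54.8 in controls and at 0, 2.84 and 18.4 in cKO, with a log2 fold change of -1.57 (SE 1.66) and -0.53 without cKO replicate 1. Control replicate 3 gave the highest value of each of these 3 genes, as of 5 of the 8 cluster genes above 0. The suprabasal genes Ivl and Lor ranked the controls in the same order, at 63.5, 252 and 591 normalized counts for Ivl and at 169, 1336 and 3680 for Lor. In cKO they were at 158 to 210 and at 139 to 479. Krt1, Krt10 and Sbsn also ranked the controls in this order, so all 5 suprabasal genes used here did. Of the basal keratinocyte genes, Itga6 and Col17a1 did so too. Krt5 and Krt14 ranked the controls in reverse, and Trp63 and Itgb4 followed neither order. Every cKO value of Krt1 was above the controls. The suprabasal list as a whole (Krt1, Krt10, Ivl, Lor and Sbsn, 5 of 6 listed genes used here) summed to 43385 to 100635 in controls and 78236 to 96807 in cKO, with 2 genes higher and 3 lower. The part of differentiated cells in the MMP values was not tested.

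**Figure D5:**
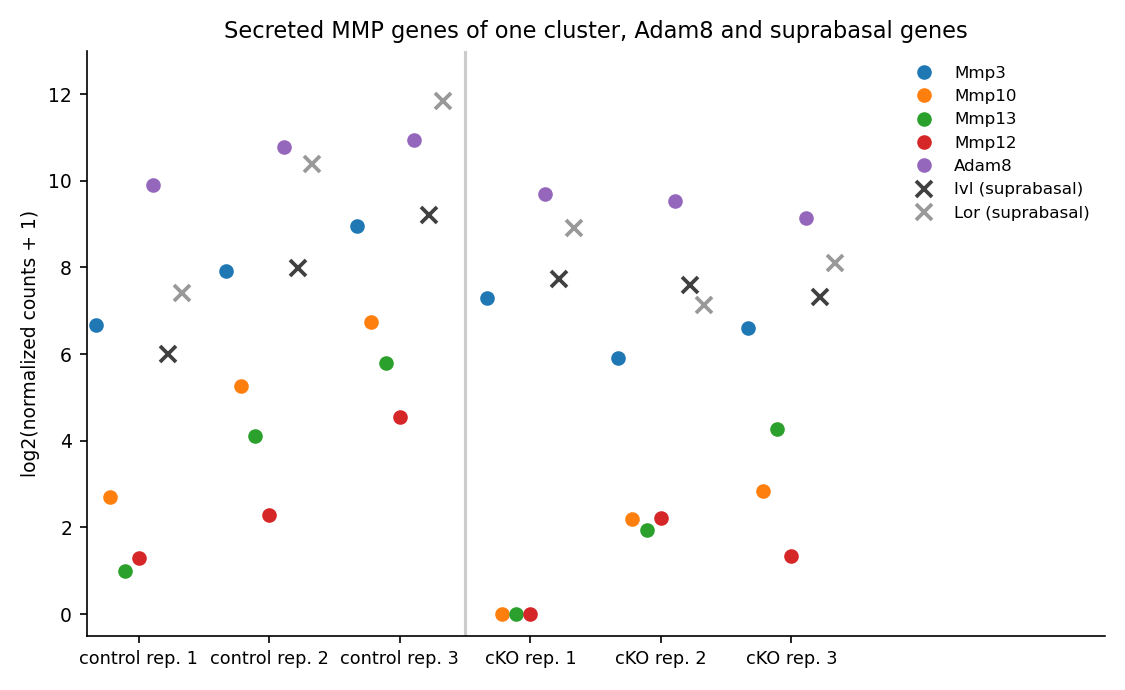
Mmp3, Mmp10, Mmp13 and Mmp12 of the chromosome 9 cluster, Adam8, and the suprabasal genes Ivl and Lor, as log2(normalized counts + 1) in the 6 libraries (circles, proteases; crosses, suprabasal genes; points are set side by side within a library). All 7 genes are highest in control replicate 3, and among the controls all 7 are lowest in replicate 1.

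The remaining MMP genes gave overlapping groups. Mmp28, epilysin, a secreted MMP known from keratinocytes, was at 498, 504 and 365 normalized counts in controls and at 621, 465 and 540 in cKO (log2 fold change 0.26, SE 0.21). The membrane-type Mmp15 was between 324 and 437 in all 6 libraries (0.05, SE 0.19, 95% interval -0.40 to 0.49), the narrowest interval of any tested MMP. Mmp17, which is anchored by a lipid, was low at 16.7 to 44.4 normalized counts (-0.36, SE 0.54).

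Among the ADAMs, all 6 tested genes had lower fitted values in cKO, where 52.9% of all genes did. For Adam10, Adam15, Adam17 and Adam1a the sign turned without cKO replicate 1, and for Adam17 also with rescaling to library totals or quantile normalization. With limma-voom it turned for Adam10, Adam15 and Adam17. Adam8, a self-activating sheddase that cuts adhesion molecules and cytokine receptors, stood at 960, 1770 and 1963 normalized counts in controls. It was at 824, 736 and 565 in cKO, each below every control. The difference on the log2 scale was -1.09 (SE 0.30, 95% interval -1.79 to -0.40), a fitted 2.13-fold lower level with an unadjusted p of 0.00693 in limma and an adjusted p of 0.744. Over the 16 alternatives it ranged from -1.41 to -0.90, with an unadjusted p of 6.6e-04 to 0.0278, and it was -1.01 with sex as a covariate. Adam8 (ENSMUSG00000025473.16) is a minus-strand gene at chr7:139978932-139992562 (GRCm38). Its controls ranked in the same order as Mmp3, Mmp10, Mmp13, Ivl and Lor. Piezo1, Ets1, Tgfa and Furin ranked the controls in that order too, and the share over all genes was not counted. Adam8 is also known from leukocytes. The T cell and the Langerhans and myeloid sums were higher in cKO, as given above. The neutrophil sum was 6.04 to 15.2 in controls and 0 to 4.99 in cKO. Only Mpo was below the controls in every cKO library, while Cxcr2 overlapped between groups and Ly6g was at 0 throughout. No neutrophil marker reached the level filter, and in cKO replicate 1 a single read is worth 12.2 normalized counts. The neutrophil sum is too near the floor to show a change. Sebocyte markers (4 of 4 lower) came to 8624 to 13618 in controls and 6337 to 8714 in cKO. The part of these cells in the Adam8 difference was not tested.

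Adam9, a further sheddase, was at 737, 735 and 873 normalized counts in controls and at 499, 721 and 659 in cKO. The groups did not overlap, but cKO replicate 2 lay close to the lowest control, and the log2 fold change was -0.33 (SE 0.20), or -0.18 without cKO replicate 1. The sheddases best known from epidermis showed no separation of groups. Adam10, which cuts Notch receptors and E-cadherin, was at 1379, 1287 and 1295 in controls and at 734, 1651 and 1220 in cKO (-0.21, SE 0.29, 95% interval -0.88 to 0.46). Adam17, which releases TNF and EGF receptor ligands, was at 1018, 907 and 1014 in controls and at 780, 1069 and 1035 in cKO (-0.04, SE 0.18, 95% interval -0.47 to 0.39). For both, cKO replicate 1 was the lowest library. Adam15 was between 391 and 509 in every library (-0.08, SE 0.18). Adam1a, known from sperm, was at 19.9 to 42.7 in controls and at 0, 43.1 and 20.6 in cKO, and its exons overlap Mapkapk5 on the same strand, so its reads are uncertain.

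Among the ADAMTS genes, Adamts1 stood at 3139, 3495 and 3736 normalized counts in controls and at 2148, 1931 and 3944 in cKO. Of the cKO libraries, replicates 1 and 2 were below the controls and replicate 3 above, with a log2 fold change of -0.44 (SE 0.28) and -0.76 without cKO replicate 3. Adamts14 was at 1769, 1719 and 1554 in controls and at 1543, 1705 and 973 in cKO (-0.29, SE 0.24), or -0.05 without cKO replicate 3. Replicate 3 of cKO was thus the highest library for Adamts1 and the lowest for Adamts14.

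Adamts10, which binds fibrillin microfibrils, was low, at 9.58, 11.1 and 8.57 normalized counts in controls and 27.1, 21.9 and 19.9 in cKO. The groups did not overlap (log2 fold change 1.151, SE 0.63), cKO replicate 1 held about 2.21 reads, and without it the log2 fold change was 1.03. Adamts9, a versican protease, was at 41.3 to 90.6 in controls and 72.0 to 125 in cKO (0.38, SE 0.42). Adamts6 and Adamts17 stayed at or below 53.0 normalized counts, with overlapping groups.

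Genes that control or serve these proteases are given from lists of known partners. Over all genes tested, 52.9% had lower fitted values in cKO. Of 7 tested regulators of ADAM10 and ADAM17, 5 were lower and 2 higher. Rhbdf1, an iRhom that carries ADAM17 to the cell surface, was at 1499, 1606 and 1760 normalized counts in controls and 1223, 1348 and 1115 in cKO. Its groups did not overlap (-0.40, SE 0.17, unadjusted p = 0.0431 in limma), whereas the other iRhom gene, Rhbdf2, gave 0.12 (SE 0.18). Tspan5, a tetraspanin partner of ADAM10, gave -0.58 (SE 0.28). The 3 tested convertases that activate the zymogens were lower, with Furin at 1132, 1806 and 2115 in controls and 1274, 1182 and 1105 in cKO (-0.46, SE 0.25, or -0.72 without control replicate 1 and -0.27 without control replicate 3). Pcsk6 gave -2.71 (SE 1.76) because cKO replicate 1 was at 0, and -0.35 without that library. Pcsk7 gave -0.29 (SE 0.27), at 417, 379 and 459 in controls and 231, 436 and 392 in cKO. Only its cKO replicate 1 was below the controls. Among other inhibitors and inducers, 2 of 3 tested genes were higher. Bsg, an inducer of MMPs, gave 0.24 (SE 0.25) and -0.01 without cKO replicate 1, and Sparc, a matrix protein, gave 0.43 (SE 0.32). Reck, a membrane-anchored MMP inhibitor, was at 0 to 11.9 normalized counts and not tested. All 4 tested ADAMTS-like genes were higher, with Adamtsl4 at 0.56 (SE 0.47) and Adamtsl1 at 0.40 (SE 0.46).

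Of 16 substrates of shedding, 12 were lower (4 at an unadjusted p under 0.05) and 4 higher (1 at that level), where 52.9% of all genes were lower and 3.46% lower and 1.47% higher at that level, with a median log2 fold change of -0.20 against -0.03 over all genes. The EGF receptor ligands released by ADAMs went both ways. Tgfa was at 430, 1040 and 1575 normalized counts in controls and at 146, 407 and 384 in cKO, each below every control (-1.64, SE 0.55, unadjusted p = 0.0184 in limma). Epgn was at 4021, 3490 and 6027 and at 2648, 3022 and 2306, again without overlap (-0.73, SE 0.25, unadjusted p = 0.0184). Areg was instead above the controls, at 255, 249 and 257 against 448, 330 and 320 (0.51, SE 0.21, unadjusted p = 0.0413). Adjusted p was 0.744 for each of these 3 ligands. The remaining EGF receptor ligands of the list had overlapping groups. Ereg gave -2.03 (SE 1.02) and Btc -1.67 (SE 0.86), both lower in cKO, and Hbegf gave 0.35 (SE 0.39).

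Of 10 tested basement membrane substrates, 7 were lower and 3 higher with none at an unadjusted p under 0.05, and Lamb3, a laminin chain, gave -0.41 (SE 0.22). Of 11 transcription factors known to induce MMP genes, 5 were lower and 6 higher. Ets1 was at 1014, 1816 and 2491 in controls and at 336, 770 and 417 in cKO (-1.80, SE 0.40, adjusted p = 0.744 in limma), and Ets2 gave -0.50 (SE 0.25). The 7 AP-1 genes of the list (Fos, Fosb, Fosl1, Fosl2, Jun, Junb and Jund) had log2 fold changes from -0.50 for Fosl1 (SE 0.31) to 0.75 for Fos (SE 0.46), none at an unadjusted p under 0.05.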

How the data were processed

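The deposited table holds normalized counts per gene and library (a signal that is never negative) made by the authors. STAR, DESeq2 and the build GRCm38 appear in the submitters' processing notes. Versions, counting program, annotation and use of strand: not given in the sources used here. Low values recurred at multiples of a smallest step, taken as 1 read, and the library total divided by it gave the approximate depth. Up to 3.5 reads, 85.2% to 90.0% of values above 0 lay within 0.05 of a whole read. In cKO replicate 1 only 47.1% did, so its depth and read equivalents are the least certain. Between 20 and 100 reads only 9.09% to 13.7% of values were within 0.05 of a whole read, so whole reads were not recovered and a test on log values took the place of the planned count test.

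Genes with a mean of at least 10 were tested as log2(value + 1) with limma 3.58.1 in R 4.3.3 (statmod 1.5.0, mean-variance trend, robust empirical Bayes, all 6 libraries, no covariates, two-sided). The added 1 shrinks changes of low genes, but a value of 0 in 1 library can enlarge the log2 change. For Adam1a, at 0 in cKO replicate 1, the cKO mean was 0.72 of the control mean while the log2 fold change was -1.56. Benjamini-Hochberg adjustment was over 12239 genes with a threshold of 0.05. Means carry the SD over 3 libraries, and a positive fold change means higher in cKO (SE from limma). In cKO replicate 1, 15.2% of tested genes lay under 3 reads. This covers counting error only. The steps were tested on simulated data.

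Samples were grouped by their titles. Same-numbered control and cKO libraries did not pair (deviations from group means correlated at 0.09, -0.15 and 0.07). The members and lists were chosen with earlier results of these data known. Named are all expressed members, the 2 genes of smallest unadjusted p per list (1 of them is not reported here) and fixed partners. Areg, Ereg, Btc, Hbegf, Pcsk7, Fos, Fosl1, Ivl, Lor, Itga6 and Col17a1 were picked after their values were seen. So were Sbsn, Itgb4, Mpo, Cxcr2 and the single genes of the Langerhans and myeloid list. Positions and exon lengths came from GENCODE M21 (GRCm38), promoter windows from RefSeq (GRCm38.p6, 17 of 23 tested members matched). Genes with near-identical copies, such as Mmp1a and Mmp1b, may share reads. Like Timp3, the genes Adam8, Adam15, Adam17, Adamts9 and Mmp28 have exons that overlap another gene on the opposite strand.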

Additional observations from a re-analysis of the deposited data

How the results depend on the processing

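No member passed adjustment in any of the alternatives run (smallest adjusted p = 0.378), and over all genes 0 passed in each except 1 gene (Amd1, not a member) without cKO replicate 2. Leaving out 1 library at a time gave 0 to 1 passing gene, 169 to 1574 genes at an unadjusted p under 0.05 (603 with all libraries), 2 to 4 members at that level (3 with all), 12 to 15 lower and 7 to 11 higher members of 21 to 23 tested, and a member median of -0.28 to -0.12 (-0.29 with all). With no filter 59 members were tested, 41 lower and 18 higher, 7 at an unadjusted p under 0.05. With a mean of at least 50 there were 15 tested or expressed members, 9 lower, with a median of -0.078. A mean of at least 1 counted 47 members as expressed, and a mean of at least 10 in controls 22. The member median was -0.15 with quantile normalization and -0.0092 with limma-voom, where 5 members had an unadjusted p under 0.05 and the median of all genes was 0.10. For the fits with no filter, with a mean of at least 50 and with limma-voom, the shares over all genes are not given here. Those counts describe the members only. With sex as a covariate 284 genes were at an unadjusted p under 0.05. Groups without overlap went from 7 to 10 members without cKO replicate 1, an alternative chosen after seeing the data.

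Of the 23 tested members, 16 kept their direction in every alternative that tested them. The replicate block and limma without trend and robust steps leave fold changes as they are, so neither could turn a sign. Adam17 turned to 0.0060 with rescaling to totals and 0.067 with quantile normalization, and with limma-voom Adam10 turned to 0.034, Adam15 to 0.10 and Adam17 to 0.13. With 1 library left out, the log2 fold change ranged from -0.48 to 0.11 for Adam10, -0.16 to 0.031 for Adam15, -0.12 to 0.10 for Adam17, -2.64 to 0.092 for Adam1a, -0.63 to 0.088 for Adamts6, -0.059 to 0.15 for Mmp15 and -0.21 to 0.44 for Mmp14, and from -0.0094 to 0.40 for the partner gene Bsg. The cause was not tested. With the replicate number as a block, each block held 1 control and 1 cKO library. The fold changes were therefore bound to stay as they were (1.57 for Mmp2 and -1.09 for Adam8). That fit gave 848 genes and 3 members at an unadjusted p under 0.05 and 0 passing adjustment. Depth limits cKO replicate 1, where 7 of the 23 tested members lay under 3 reads and 4 were listed at 0.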

Other observations

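Some members under the level filter were also uneven between libraries, and these were picked after their values were seen. Adam19, a sheddase, held 3.38, 2.74 and 7.41 normalized counts in the 3 controls, was listed at 0 in cKO replicate 1, and held 7.34 and 21.3 in cKO replicates 2 and 3. Adam23, a member without protease activity that is known from neurons, held 1.51, 3.95 and 1.804 (controls), and 0, 5.72 and 16.8 (cKO). Both were highest in cKO replicate 3, the library with the highest sum of Langerhans and myeloid markers. Mmp12, the macrophage elastase, was highest in control replicate 3 at 22.4 and at most 3.85 in the other libraries. None of these values was tested.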
